A study of Homo sapiens with 8 samples.

Results

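The genes of the proteasome, the protease that degrades ubiquitin-tagged proteins, were taken by their symbols. Entries named PSMA to PSMG with a number were kept, and 49 of the 19475 entries of the expression table matched. Of these, 48 encode core subunits, cap subunits, activators, an inhibitor or assembly chaperones of the proteasome. PSMC3IP matched by its symbol only, as did the antisense RNAs PSMA3-AS1 and PSMD6-AS2, which appeared in the peak lists but not in the expression table. The study set cells of the human colorectal carcinoma line HCT116 that received Fusobacterium nucleatum (F. nucleatum, labelled FUSO), an anaerobe of the mouth that also occurs in colorectal tumours, against Control cells given PBS. The dose of bacteria and the time of exposure are stated in the methods and not in the labels, and are not given here. No gene was altered in either group, and all libraries came from cultures of the same line. N6-methyladenosine (m6A, adenosine of mRNA with an added methyl group) was mapped in poly(A) RNA by sequencing fragments bound by an antibody against it (IP) and, in parallel, all fragments (input). Each treatment had 2 IP and 2 input libraries. The methods call the 2 libraries of a group biological replicates. Levels are in FPKM, fragments scaled to transcript length and to the mapped fragments of the library, from the input libraries, and the 4 peak lists set each IP library against the input of the same number.

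The proteasome is a barrel, the 20S core, closed by caps. Its outer rings are built from alpha subunits (PSMA genes) that gate the entry, and its inner rings from beta subunits (PSMB genes), of which PSMB5, PSMB6 and PSMB7 carry the cutting sites. Under interferon, PSMB8, PSMB9 and PSMB10 take the places of these in the immunoproteasome, which is known for producing peptides for display on MHC class I. The 19S cap holds a ring of ATPases (PSMC genes) that unfold substrates and non-ATPase subunits (PSMD genes) that bind and trim ubiquitin. PSME genes encode other activators of the core, PSMF1 an inhibitor, and PSMG genes chaperones of core assembly. The mark m6A is known to be placed within the DRACH sequence (D is A, G or T, R is A or G, and H is A, C or T), most often GGAC, and to be dense around stop codons.

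Between 14566 and 14816 entries had an FPKM over 0 in an input library, and the lists held 17039 to 18365 peaks. The depth behind a value is unknown, because the table holds no counts. The most frequent ratio between low genes put the input of Control 2 at 1.12 times, F. nucleatum 1 at 1.24 times and F. nucleatum 2 at 0.91 times the depth of Control 1, a rough figure, since 7 to 13 of 261 to 326 low genes shared the ratio. Of 8 colon epithelial markers 7 reached a mean of 1 FPKM, and VIL1 was listed at 0 in 3 libraries and at 0.018 FPKM in F. nucleatum 2. The 8 summed to 5176 and 4800 FPKM under PBS and 4357 and 4726 FPKM with the bacterium. The proteasome sum shares this order, and the marker sum rests mostly on KRT8, KRT18 and KRT19. KRT8 and CDX2 were lower at an unadjusted limma p of 0.0209 and 0.0312 (adjusted 0.291 and 0.332). Groups did not overlap in KRT8, KRT18 and CDX2, which were lower, nor in EPCAM and CDH1, which were higher (log2 fold change 0.11 and 0.16). Over all 11088 entries with a mean of at least 1 FPKM, 21.1% were lower and 26.1% higher without overlap. At an unadjusted limma p under 0.05, 6.45% of these entries were lower. The median log2 fold change over the 7 markers was -0.025. The 5 leukocyte markers summed to 0.0695 to 0.222 FPKM in a library. Of 4 stromal markers only COL1A1 passed the filter, and the 4 summed to 3.85 to 4.64 FPKM under PBS and 5.26 to 5.87 FPKM with the bacterium. The part of other cells in the results was not tested.

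Proteasome mRNAs were abundant in HCT116 cells. The median of the mean levels was 101 FPKM over the 45 proteasome genes whose mean reached 1 FPKM, against 9.45 FPKM over the 11088 entries that passed this filter. The 48 genes together summed to 5652 and 5602 FPKM under PBS against 5403 and 5489 FPKM with the bacterium, which was 1.11% to 1.15% of all FPKM in a library. Both F. nucleatum sums lay below both Control sums. By level per length of transcript, core subunits led, with PSMB1 (chr6:170844208-170862395, minus strand on GRCh37) at a mean of 462 FPKM, PSMB3 at 389, PSMB4 at 359 and PSMB7 at 347 FPKM. PSMB2, of the inner rings, and PSMA5, of the outer rings, had means of 33.8 and 42.9 FPKM. Core subunits need equal numbers of protein copies, and their mRNA levels here spanned from 33.8 to 462 FPKM. PSMA8, a testis form of an alpha subunit, was listed at 0 in all 4 libraries, and PSMB11, the thymus beta subunit, at 0 in 3 libraries and at 0.0261 FPKM in F. nucleatum 2. Together with PSMB8, which is described with the immunoproteasome, these were the 3 members under the filter.

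**Figure D1:**
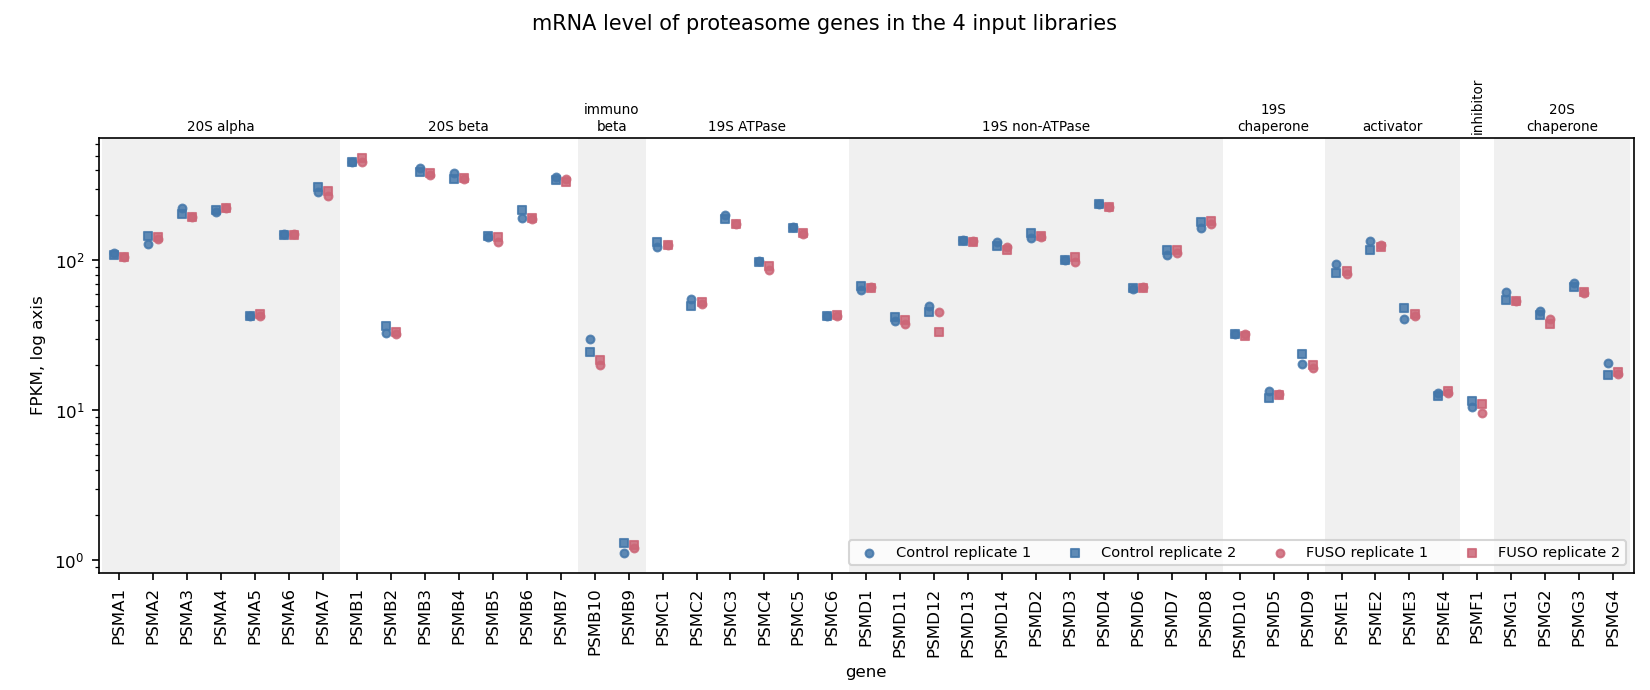
FPKM on a log axis of the 45 tested proteasome genes in the 4 input libraries, ordered by role, with circles for replicate 1 and squares for replicate 2. Control and F. nucleatum (FUSO) libraries lie close together at nearly every gene, PSMB1 is at the top at a mean of 462 FPKM, and PSMB9 is at the bottom at 1.22 FPKM.

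The first comparison asked whether the bacterium changed the mRNA levels of the proteasome. None of the 45 tested genes passed an adjusted p of 0.05 (limma on log2(FPKM + 1), two-sided, Benjamini-Hochberg adjusted over all entries tested), where 0.667% of all tested entries were called higher and 0.135% lower. Before adjustment, 0 genes had a higher level at a p under 0.05 and 4 a lower one, namely PSMB10, PSMC3, PSMG2 and PSMG3, beside 7.04% higher and 6.45% lower of all tested. Over the alternatives that kept all 4 libraries, the number lower ranged from 1, without trend, to 7, after correction for GC content. Shares over all tested entries were not counted in these settings, so the range says nothing particular about proteasome genes. The median log2 fold change (F. nucleatum minus Control) of the proteasome genes was -0.051, against 0.014 over all tested. The fold changes ran from -0.36 to 0.07. Below 0 were 33 of the 45 (73.3%), beside 46.0% of all tested. This count was 28 after quantile normalization and 38 after correction for GC content. The median over all tested was then -0.006 and 0.001, and the share of all tested below 0 was not counted, so the 46.0% does not apply. In 16 genes (35.6%) both F. nucleatum libraries lay below both Control libraries, beside 21.1% of all tested, and in 3 genes (6.67%) both lay above, beside 26.1%. FPKM is relative to the whole library, so fewer proteasome transcripts and more of other mRNAs cannot be told apart, nor can a change in some cells and a change in all.

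In the outer rings of the core, fold changes were on both sides of 0, with a median of 0.002 over 7 alpha genes. PSMA7 had the highest level, at 286 and 307 FPKM under PBS against 269 and 289.6 FPKM with the bacterium (log2 fold change -0.09). PSMA3 was at 224 and 203 FPKM under PBS against 195 and 196 FPKM with the bacterium. Both F. nucleatum values lay below the Control values, and the change was -0.13 (95% confidence interval -0.28 to 0.03, limma adjusted p 0.437). PSMA4 went the other way, at 209.7 and 219 FPKM under PBS against 225 and 225 FPKM with the bacterium, which do not overlap, with a change of 0.07 (adjusted p 0.563).

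Of the 7 standard beta genes, 6 had fold changes below 0 and the median was -0.067. PSMB5, the chymotrypsin-like subunit, was at 143 and 146 FPKM under PBS against 133 and 142 FPKM with the bacterium (log2 fold change -0.07, 95% confidence interval -0.21 to 0.07). PSMB6, the caspase-like subunit, was at 193 and 215 FPKM under PBS against 191 and 193 FPKM with the bacterium (log2 fold change -0.09, 95% confidence interval -0.26 to 0.08). PSMB7, the trypsin-like subunit, was at 359 and 344 FPKM under PBS against 351 and 334 FPKM with the bacterium (log2 fold change -0.04, 95% confidence interval -0.17 to 0.10). The groups overlapped for PSMB6 and PSMB7 and were apart for PSMB5 by less than 1 FPKM, and the limma adjusted p-values were 0.61, 0.593 and 0.782. PSMB1 was at 456 and 456 FPKM under PBS against 452 and 485 FPKM with the bacterium, a change of 0.04, the highest of this group.

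Of the immunoproteasome subunits, PSMB10 and PSMB9 were tested and neither was called. PSMB10 (chr16:67968409-67970767, minus strand on GRCh37), which replaces PSMB7, was at 29.7 and 24.3 FPKM under PBS against 19.98 and 21.5 FPKM with the bacterium. Its groups did not overlap, and its log2 fold change of -0.36 (SE 0.108, 95% confidence interval -0.63 to -0.09) was the lowest of the proteasome genes, with an unadjusted limma p of 0.0176 and an adjusted p of 0.285. Leaving out Control 2, the lower of the Control values, gave -0.50 and an adjusted p of 0.0389, and leaving out Control 1 gave -0.22 and 0.307. With 1 Control library left, the spread comes from the F. nucleatum pair alone and the lone library is assumed to vary like it. The adjusted p was 0.271 to 0.802 in all alternatives other than that without Control 2. PSMB10 mRNA was 8.29% and 7.06% of PSMB7 mRNA under PBS, and 5.69% and 6.44% with the bacterium. PSMB9 (chr6:32811913-32827628, plus strand), which replaces PSMB6, was at 1.12 and 1.30 FPKM under PBS against 1.21 and 1.26 FPKM with the bacterium, with overlapping groups and a change of 0.02 (95% confidence interval -0.23 to 0.27, adjusted p 0.95). PSMB8 (chr6:32808494-32812456, minus strand), which replaces PSMB5, was listed at 0 in all 4 libraries. PSMB8 and PSMB9 overlap on opposite strands, and the sources used here do not state whether fragments were counted by strand.

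PSMB8 and PSMB9 lie in the MHC stretch of chromosome 6, and their levels carry a further limit. Of 71 tested protein-coding genes at chr6:29624779-33386094 on GRCh37 the median was 3.54 FPKM and 5 (7.04%) had a peak in any list. On the remainder of the chromosome, 447 tested genes had a median of 7.41 FPKM and 82.8% had a peak. TUBB, a tubulin gene of general use that lies within this stretch, was at 13.6 and 9.41 FPKM under PBS and 20.4 and 8.61 FPKM with the bacterium, whereas TUBA1B on another chromosome was at 1106 to 1212 FPKM. The limits of the stretch were set after these values had been seen. The cause was not tested, and the levels of PSMB8, PSMB9 and of TAP1, TAP2 and TAPBP are not set against genes elsewhere.

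In the 19S cap the ATPases had a median of -0.067, with 5 of 6 genes below 0. PSMC3 had the highest level and the lowest fold change of them, at 200.3 and 189 FPKM under PBS against 174 and 175 FPKM with the bacterium. Its groups did not overlap, and the change was -0.16 (95% confidence interval -0.29 to -0.02, limma p 0.0303, adjusted 0.33). PSMC4 and PSMC5 were also lower in both F. nucleatum libraries, with changes of -0.14 and -0.12. PSMC6 was at 42.7 and 42.6 FPKM under PBS against 42.7 and 42.99 FPKM with the bacterium, a change of 0.01 that turned to -0.04 after GC correction.

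The 11 non-ATPase genes of the cap had a median of -0.017. PSMD4, a ubiquitin receptor and the most abundant of them, was at 237 and 238 FPKM under PBS against 229 and 229 FPKM with the bacterium (log2 fold change -0.05, adjusted p 0.654). PSMD12 was at 49.9 and 45.5 FPKM under PBS against 44.97 and 33.04 FPKM with the bacterium. All its F. nucleatum values were below the Control values, but the spread was wide because F. nucleatum 2 stood apart, and the change of -0.30 had an interval of -0.66 to 0.07 and an adjusted p of 0.435. It was -0.082 without F. nucleatum 2 and -0.51 without F. nucleatum 1. PSMD8 had the highest fold change, 0.06, with levels at 165 and 182 FPKM under PBS against 175 and 185 FPKM with the bacterium that overlapped. PSMD14, the deubiquitinase of the cap, was at 132 and 125 FPKM under PBS against 124 and 118 FPKM with the bacterium, a change of -0.09 with groups apart (adjusted p 0.517).

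Of the chaperones of core assembly, all 4 PSMG genes had fold changes below 0, with a median of -0.134. PSMG2 was at 46.3 and 43.1 FPKM under PBS against 40.96 and 37.5 FPKM with the bacterium, a change of -0.18 (limma p 0.0489, adjusted 0.367). PSMG3 was at 71.1 and 66.4 FPKM under PBS against 61.00 and 61.5 FPKM with the bacterium, a change of -0.16 (limma p 0.0379, adjusted 0.347). For both genes the F. nucleatum values lay below the Control values. PSMG4 had the smallest change of the 4, -0.09, with overlapping groups. Of the chaperones of the 19S cap, PSMD9 was at 20.5 and 23.6 FPKM under PBS against 19.02 and 19.9 FPKM with the bacterium (-0.17, adjusted p 0.456), while PSMD10 and PSMD5 changed by -0.02 and -0.01.

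Among the activators, PSME2 and PSME1, which form the interferon-induced cap, did not separate the groups. PSME2 was at 136 and 117 FPKM under PBS against 127 and 123 FPKM with the bacterium. PSME1 was at 94.4 and 82.8 FPKM under PBS against 80.99 and 84.8 FPKM with the bacterium. The groups overlapped for both, with changes of -0.01 (95% confidence interval -0.21 to 0.19) and -0.09 (95% confidence interval -0.29 to 0.10). PSME4, a large single-chain activator, was at 13.04 and 12.5 FPKM under PBS against 13.1 and 13.4 FPKM with the bacterium, a change of 0.05. The inhibitor PSMF1 was at 10.5 and 11.5 FPKM under PBS against 9.54 and 11.1 FPKM with the bacterium, a change of -0.09 with overlap. PSMC3IP, which acts in recombination and is no proteasome subunit, was at 14.5 and 14.9 FPKM under PBS against 10.9 and 13.8 FPKM with the bacterium (-0.24, adjusted p 0.425).

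Genes that work with the proteasome were followed in a list of 29 partners, such as ubiquitin receptors, ubiquitin genes and regulators, and 12 genes of antigen processing. Of 28 partners tested none was called by limma (before adjustment, at a p under 0.05, NFE2L2 was higher and ADRM1 and ECPAS lower, which is 1 and 2) and the median log2 fold change was 0.010. Of 9 antigen-processing genes tested 1 was called higher and 0 lower (2 and 0 before adjustment, IRF1 and B2M), and the median was 0.058. Beside both lists stand 0.667% higher and 0.135% lower of all tested entries, and 7.04% and 6.45% before adjustment. The gene called was IRF1, an interferon regulatory factor that activates immunoproteasome genes, which rose from 2.77 and 2.34 to 7.72 and 7.50 FPKM (log2 fold change 1.28, limma adjusted p 0.00852). With F. nucleatum 1 or F. nucleatum 2 left out, its adjusted p was 0.111 or 0.104, and it was 0.0048 to 0.0431 in all other alternatives. NFE2L2, an activator of oxidative stress genes and of some proteasome genes, was at 33.5 and 36.6 FPKM under PBS against 46.5 and 46.9 FPKM with the bacterium. These did not overlap, and the change of 0.41 (95% confidence interval 0.24 to 0.57) had an adjusted p of 0.103. It was 0.0221 without Control 2, where the spread again comes from the F. nucleatum pair alone, and 0.605 and 0.573 without F. nucleatum 1 and F. nucleatum 2. NFE2L1, the factor that raises proteasome genes when the proteasome is blocked, was at 28.02 and 39.5 FPKM under PBS against 48.6 and 34.2 FPKM with the bacterium, with overlap (change 0.29, adjusted p 0.582). ADRM1, a ubiquitin receptor of the cap, was lower in both F. nucleatum libraries, at 220.1 and 215 FPKM under PBS against 187 and 194 FPKM with the bacterium (-0.19, adjusted p 0.246). The same order held for POMP, a chaperone of core assembly, at 128 and 121 FPKM under PBS against 109.7 and 116 FPKM with the bacterium (-0.14, adjusted p 0.398). TAP1, the peptide transporter that shares a promoter with PSMB9, was at 1.43 and 1.31 FPKM under PBS against 1.54 and 1.67 FPKM with the bacterium (0.14, adjusted p 0.548).

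Promoters of the members were searched for letters of the factors named above, over 250 bases before to 50 bases after each start listed by RefSeq on GRCh38.p14, on both strands. A promoter was found for 42 of the 48 genes. The letters TGACNNNGC of the antioxidant response element, to which NFE2L1 and NFE2L2 are known to bind, were in 15 of these (35.7%), against 16.1% of all 27305 genes listed. The letters GGGNNTTTCC of NF-kB were in PSMD6 alone (2.38%, against 2.33%). The letters GAAANNGAAA of the interferon-stimulated response element, searched after the data had been seen, were in 7 (16.7%, against 4.38%), namely PSMA4, PSMB4, PSMB8, PSMB10, PSME1, PSME2 and PSMG4. The promoter of PSMB9, the remaining immunoproteasome subunit, was also searched and did not hold these letters. Windows of GAAANNGAAA are shown for the inducible genes that held it, with the 10 letters in capitals and on the strand that carries them. They were chosen because PSMB8, PSMB10, PSME1 and PSME2 held the same letters near the start, as PSMG4 did.
PSMB8 chr6:32844032-32844061, plus strand: aggaggaagtGAAAGCGAAAgccacagatc
PSMB10 chr16:67936852-67936881, minus strand: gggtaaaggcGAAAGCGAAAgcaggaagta
PSME1 chr14:24136189-24136218, minus strand: accgcgaaggGAAAGCGAAAgcggtagggc
PSME2 chr14:24146619-24146648, minus strand: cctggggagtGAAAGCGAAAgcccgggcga
The shares stand against every gene listed, and not against expressed genes or promoters of like GC content, so an excess is not read as enrichment. A match describes the letters and is not a site of binding.

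The next comparison asked how many proteasome genes carried an m6A peak and whether this number differed. Control 1 had a peak in 30 of the 48 genes, Control 2 in 25, and F. nucleatum 1 and 2 in 28 each. The means were 27.5 ± 3.54 and 28 ± 0 genes (SD, n = 2 each), and the difference of 0.5 genes was smaller than the spread of the Control lists (two-sided exact permutation p of 1, where the 3 splits of the lists allow no p below 1 in 3). A peak in any list was found in 31 of the 45 tested genes (68.9%), beside 83.9% of all tested, and a peak in all 4 lists in 24 (53.3%), beside 68.7%. Without Control 1 or Control 2 the difference was 3 or -2 genes, so its sign rested on single lists.

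Proteasome genes without a peak had mostly short transcripts. The 14 tested genes with no peak were PSMA1, PSMA3, PSMA6, PSMA7, PSMB1, PSMB9, PSMB10, PSMC5, PSMD6, PSMD14, PSME1, PSME2, PSMG2 and PSMG4. Of these, PSMB9 had a mean of 1.22 FPKM and lies in the MHC stretch, where few genes had a peak. The canonical transcript had a median of 997 nt in these and 2437.5 nt in the 24 genes with a peak in all lists, and the longest exon a median of 238 and 954.5 nt. Over all tested genes with an annotated coding transcript, the medians were 2178 nt without a peak and 3589 nt with a peak in all lists. At 30 to 1000 FPKM and under 1200 nt, 5 of 13 proteasome genes had a peak, beside 68.9% of 511 genes. From 1200 to 2000 nt, it was 10 of 13, beside 79.1% of 578 genes. Above 2000 nt, it was 12 of 12, beside 87.9% of 1062 genes. PSMB1, the most abundant at 462 FPKM and with a transcript of 891 nt, had no peak, whereas PSMF1, at 10.7 FPKM and 8154 nt, had one in every list.

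**Figure D2:**
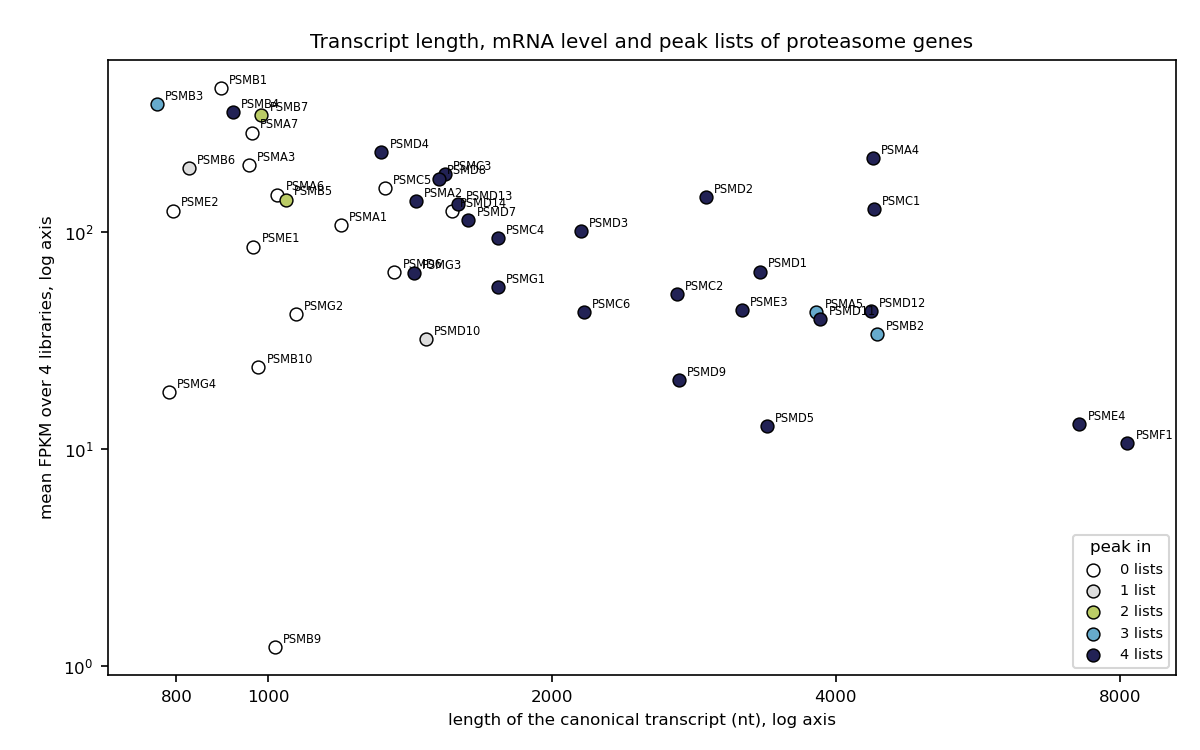
Length of the canonical transcript (nt, log axis) against the mean FPKM over the 4 input libraries (log axis) of the 45 tested proteasome genes, coloured by the number of peak lists with a peak. Genes with no peak (white) gather on the left, with a median of 997 nt, and all genes above 2000 nt have a peak in at least 3 lists.

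Merging the lists gave 42 m6A regions in 31 proteasome genes, with 1 region in 22 genes, 2 in 7 genes and 3 in 2 genes. Of the regions 27 (64.3%) had a peak in all 4 lists, beside 51.5% of 22001 regions in all genes, and 6 (14.3%) in 1 list, beside 25.6%. By their midpoint on the canonical transcript 5 lay in the 5′UTR, 15 in the coding sequence (CDS), 9 within 100 nt of the stop codon and 13 in the 3′UTR. As shares these are 11.9%, 35.7%, 21.4% and 31.0%, beside 6.61%, 45.6%, 15.3% and 32.5% of the 18829 regions placed in all genes. GGAC was present in 25 of the 42 regions and DRACH in 39. Of the 27 regions found in all lists, 20 held GGAC, and of the 6 found in 1 list, 2 did. The former spanned 150 to 1200 bases and the latter 59 to 120, and a longer region has more room for either sequence. Shares over all regions were not counted, so these numbers do not set proteasome regions or shared regions apart.

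Many regions lay at the start codon. Within 200 nt of the start codon lay 17 of the 42 midpoints (40.5%), beside 11.8% of all regions placed. For transcripts under 2000 nt, it was 9 of 19 (47.4%), beside 25.3% of 2501 regions. Of the 7 regions of 19S ATPases, 5 were of this kind, of the 8 regions of standard beta genes 5, and of the 14 regions of 19S non-ATPase genes 4. The limit of 200 nt was chosen after the positions had been seen, and the roles were not compared by a test. Each of PSMC1, PSMC2, PSMC3, PSMC4 and PSMC6 had such a region in all 4 lists, with midpoints 95, 7, 164, 47 and 58 nt after the start codon. PSMC5, the remaining ATPase of the ring, had no peak in any list at a mean of 159 FPKM. Of the 14 regions of non-ATPase genes 9 lay at the stop codon or in the 3′UTR, with PSMD4, PSMD7, PSMD12 and PSMD13 at 84, 68 and 43 nt before and 45 nt after the stop codon, and PSMD3, PSMD8 and PSMD11 at 156, 214 and 141 nt after it.

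**Figure D3:**
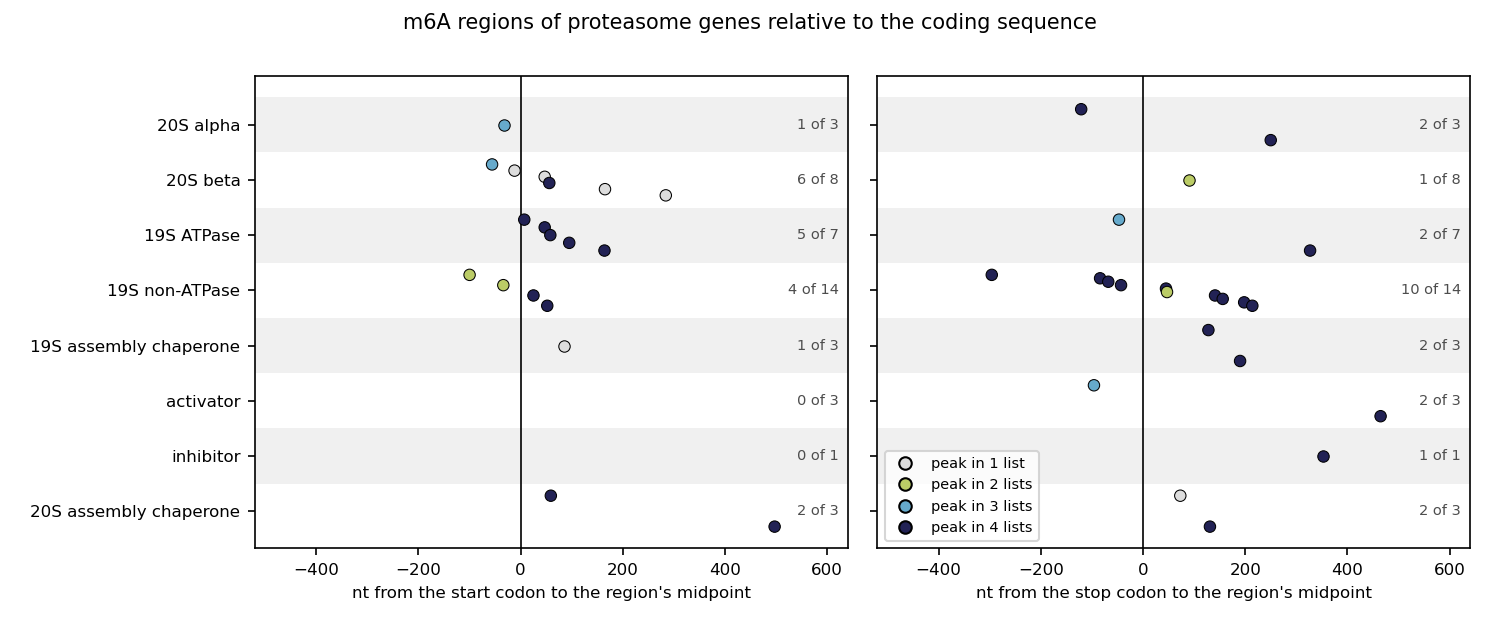
Midpoints of the m6A regions of proteasome genes in nt from the start codon (left) and the stop codon (right) on the canonical transcript, by role, coloured by the number of lists with a peak, with the number of regions inside 500 nt of the codon and the total of each role at the right. The 5 start-codon regions of the 19S ATPases lie between 7 and 164 nt after it, and 10 of 14 regions of the 19S non-ATPase genes lie inside 500 nt of the stop codon.

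The start-codon regions of the ATPases are shown by the GGAC nearest to the middle of each region, in capitals, because the same 4 letters stood in all 5 regions. Sequence is from GRCh37, in the direction of the mRNA.
PSMC1 chr14:90725544-90726474, plus strand: agaaggatgacaaGGACaagaaaaagaaat
PSMC2 chr7:102988196-102988225, plus strand: aagaggatgagaaGGACgacaagcccatcc
PSMC3 chr11:47446797-47447446, minus strand: gcacacggctgctGGACagtgagatcaaga
PSMC4 chr19:40478108-40478137, plus strand: gccctgagcctgaGGACctggaggacctgt
PSMC6 chr14:53173954-53173983, plus strand: ataaggcgcttcaGGACtaccgcaagaagt
In PSMC2 the letter after GGAC is g, so the GGAC printed for it is not within DRACH. The windows of PSMC1 and PSMC3 cross an exon junction, so that their coordinates span an intron. In PSMC2 the region (chr7:102988031-102994380, plus strand) had scores, the deposited values read as the p-values of the peak caller, of 1.3e-16 and 1e-27 under PBS against 3.2e-37 and 3.2e-35 with the bacterium. The score was thus lower, which is stronger, in both F. nucleatum lists. In PSMC1 (chr14:90722894-90729743, plus strand) it went the other way, with 2e-58 and 1.6e-73 under PBS against 3.2e-49 and 5e-49 with the bacterium. PSMC3 had 1.3e-28 and 5e-38 under PBS against 1e-27 and 1.6e-40 with the bacterium, which overlap, and so did those of PSMC4 and PSMC6.

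By score, PSMD4 and PSMD7 led. These were followed by PSME4, PSMD13 and PSMG3, and the 5 are printed around the GGAC nearest to the middle of the region, or around DRACH for PSME4, whose region held no GGAC. The GGAC printed for PSMD4 is followed by g and is not within DRACH.
PSMD4 chr1:151239767-151239796, plus strand: cccaggccaccaaGGACggcaagaaggaca
PSMD7 chr16:74339549-74339578, plus strand: aggataggaaagaGGACaaggagaaagata
PSME4 chr2:54092233-54092261, minus strand: ctgaagccttgaGAACCttgggtctggag
PSMD13 chr11:252736-252765, plus strand: tgctctaaaaacaGGACtgtccctgatggg
PSMG3 chr7:1607256-1607285, minus strand: gacacccactcagGGACtcaagtctcacct
At the stop codon of PSMD4 (chr1:151238846-151239954, plus strand, 444 bases in 3 exon blocks, 5 GGAC), the scores were 9e-296 and 1e-257 under PBS against 1e-254 and 1e-280 with the bacterium. PSMD7, a scaffold partner of the deubiquitinase PSMD14, had 9e-296 and 1e-263 under PBS against 1e-262 and 1e-228 with the bacterium at its stop codon (chr16:74338279-74339948, plus strand, 776 bases, 3 GGAC). The groups overlap for PSMD4, and both F. nucleatum scores were weaker for PSMD7. In the 3′UTR of PSME4 (chr2:54091923-54092582, minus strand) the scores were 1e-128 and 1e-127 under PBS against 1e-122 and 2e-68 with the bacterium. At the stop codon of PSMD13 (chr11:251852-252865, plus strand) they were 1e-103 and 1e-106 under PBS against 1.3e-91 and 4e-96 with the bacterium. In PSMG3, whose region (chr7:1606970-1607440, minus strand) lies 131 nt after the stop codon, they were 7.9e-89 and 7.9e-82 under PBS against 6.3e-63 and 7.9e-71 with the bacterium. In these 3 genes too, both scores with the bacterium were the weaker ones. The log2 fold changes of the mRNA levels of these 4 were 0.01 for PSMD7, 0.05 for PSME4, -0.02 for PSMD13 and -0.16 for PSMG3, whose groups did not overlap (limma adjusted p 0.948, 0.769, 0.89 and 0.347). Over the 27 regions in all lists, this order was found in 8 (29.6%), beside 18.9% of 11341 such regions in all genes, and the reverse in 3 (11.1%), beside 15.7%. These shares differed with the GC content of the region. Under 45% GC the order was found in 3 of 8 proteasome regions, beside 9.47% of all. From 45% to 60% it was 4 of 15, beside 18.1%, and at 60% or more 1 of 4, beside 36.4%. The reverse was found in 2, 1 and 0, beside 21.1%, 15.2% and 8.17%. The part of GC content was not tested. Scores move with depth and mRNA level as well as with m6A, and the depth of the IP libraries is unknown.

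In the core, few regions were shared by the lists. Of 8 regions in the standard beta genes only that of PSMB4 was in all lists (chr1:151372041-151372190, plus strand, 56 nt after the start codon, scores of 7.9e-55 and 1.6e-52 under PBS against 2.5e-72 and 3.2e-44 with the bacterium). PSMB5 had 3 regions, each in a single list, with scores of 0.00065, 0.00037 and 0.0025. PSMB6 had 1, in Control 1 only (3.2e-06), and PSMB7 1, in Control 1 and F. nucleatum 2 (1e-08 and 7.8e-05). Accordingly, 6 of the 7 standard beta genes had a peak in Control 1 and 2 in Control 2, while F. nucleatum 1 and 2 had 3 and 4. Of the alpha genes, PSMA2 and PSMA4 had a region in all lists. That of PSMA2 had 1.4e-05 and 4.5e-08 under PBS against 3.4e-10 and 1.8e-06 with the bacterium, which overlap, and that of PSMA4 had 1.3e-32 and 6.3e-22 under PBS against 2e-58 and 2e-40 with the bacterium, both F. nucleatum scores being stronger. PSMB8, PSMB9 and PSMB10 had no peak in any list. PSMB8 was listed at 0 FPKM and PSMB9 at a mean of 1.22 FPKM. Both lie in the MHC stretch, where 7.04% of tested genes had a peak, so their lack of one is not read as a lack of m6A.

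Regions that were private to a treatment were few. Regions called in both Control lists but not with the bacterium are termed lost, and those of the reverse kind gained. There was 1 lost region among 42 (2.38%), beside 2.64% of all regions, and 1 gained (2.38%), beside 2.38%. The lost one lay in the 5′UTR of PSMD3 (chr17:38137051-38137320, plus strand, 270 bases), 34 nt before the start codon, with scores of 6.6e-06 and 7.9e-15. The gained one lay 47 nt after the stop codon of PSMD2 (chr3:184026663-184026782, plus strand, 120 bases), with 0.0012 in both F. nucleatum lists. PSMD2 and PSMD3 encode scaffold subunits of the cap, and the GGAC nearest the middle of each region is in capitals.
PSMD3 (lost) chr17:38137186-38137215, plus strand: ggcctcggtccccGGACtaggccgtgaccc
PSMD2 (gained) chr3:184026733-184026762, plus strand: tgctgccaagggtGGACacggctgcagact
The mRNA levels overlapped between the groups for both. PSMD3 was at 101 and 101 FPKM under PBS against 97.1 and 105 FPKM with the bacterium (0.00, adjusted p 0.997) and PSMD2 at 140.2 and 152 FPKM under PBS against 144 and 145 FPKM with the bacterium (-0.02, adjusted p 0.927). Each gene also had a region in all 4 lists, in the 3′UTR of PSMD3 (7.9e-11 and 3.2e-14 under PBS against 1.6e-12 and 1.6e-12 with the bacterium) and in the CDS of PSMD2, 52 nt after the start codon (1.6e-10 and 1.3e-18 under PBS against 0.00013 and 2.7e-05 with the bacterium). The lost region of PSMD3 had a GC content of 74.4%, the highest of the 42, and the CDS region of PSMD2, at 73.7%, was weaker in both F. nucleatum lists. Of all 2142 regions in all lists with a GC content of 60% or more, 36.4% were weaker in both F. nucleatum lists and 8.17% stronger, and of 3506 regions under 45%, 9.47% and 21.1%. The part of GC content in the lost region was not tested. Both counts moved with the rule. With scores of at most 1e-05, the lost and gained numbers were 2 and 0 of 35, beside 2.59% and 2.25% of all regions. When a reciprocal overlap of 50% was asked for, they were 2 and 2 of 51, beside 2.61% and 2.65%. Without the list of Control 1, Control 2, F. nucleatum 1 or F. nucleatum 2, there were 1, 4, 2 and 1 lost and 5, 1, 5 and 2 gained regions of 39, 42, 44 and 40. Over all genes 11.3%, 8.74%, 6.93% and 4.44% of the regions were then lost and 4.31%, 6.60%, 8.26% and 11.3% gained.

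Of the names matched by symbol only, PSMC3IP and PSMA3-AS1 each had a region in all 4 lists. That of PSMA3-AS1 spanned 1469 bases (chr14:58732503-58733971, minus strand), with 1e-43 and 1e-35 under PBS against 4e-34 and 3.2e-31 with the bacterium, while PSMA3 itself had none. This region lies within the span of PSMA3, which is on the plus strand. The sources used here do not state whether fragments were assigned by strand, so the contrast with PSMA3 is limited.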

How the data were processed

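Polyadenylated RNA of HCT116 cells was fragmented and sequenced before (input) and after m6A immunoprecipitation. The authors trimmed reads (Trim Galore 0.3.3), aligned them to hg19 (GRCh37) with HISAT2 2.1.0 and deposited 1 FPKM value per gene and input library, computed with StringTie. The authors also deposited 1 peak list per IP library, whose score is read here as the p-value of their peak caller, at most 0.012; the methods name MACS2, while the file layout is that of another caller, so the caller is not settled. Read counts are not given, and the depth is unknown.

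Levels were compared with limma 3.58.1 (R 4.3.3, trend, Benjamini-Hochberg) on log2(FPKM + 1) over 11088 entries with a mean of at least 1 FPKM. DESeq2, named by the study, needs counts and was not run. Fold changes on this scale understate low genes. Peaks of the 4 lists whose exon blocks shared at least 1 base on the same strand were merged into regions and placed on GENCODE 44 transcripts (GRCh37). Numbers of genes with peaks were compared with an exact permutation test (SciPy 1.17.1). Promoters came from RefSeq (GRCh38.p14). The fit and the merging were tested on simulated data. Genes were named by rule: the catalytic and immunoproteasome subunits, per role the highest level and the highest and lowest fold change, members under the filter, members with a lost or gained region, the 5 lowest scores, and of the lists NFE2L1, NFE2L2, TAP1, POMP, ADRM1 and those called. Others, among them PSMA5, PSMB2, PSMC4, PSMC5, PSMD14, B2M, KRT8, KRT18, KRT19, CDX2, EPCAM, CDH1, TUBB and the start-codon regions of the ATPases, were chosen after their values were seen. Members and lists were chosen with earlier results of these data known. Alternatives were pseudocount, filter, normalization, GC correction (GC known for 96.4% of entries and all 45 members), trend, replicate block, peak score, overlap and leaving out each library.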

Additional observations from a re-analysis of the deposited data

How the results depend on the processing

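No proteasome gene was called higher under any of the 11 alternatives, and none lower except PSMB10 without Control replicate 2, so that the number called lower with a library left out was 0 to 1. In such fits the lone library of a group is assumed to vary like the other group. The number of partner and antigen-processing genes called was 0 to 2 with a library left out (IRF1 and NFE2L2 without Control replicate 2, and 0 without either FUSO replicate). The median log2 fold change of the proteasome genes was -0.032 (without FUSO replicate 1) to -0.058 with a library left out, and -0.041 to -0.063 otherwise. With scores of at most 1e-05 there were 0 gained and 2 lost regions of 35, beside 2.25% and 2.59% of all regions. With a reciprocal overlap of 50% there were 2 and 2 of 51, beside 2.65% and 2.61%. With a library left out there were 1 to 5 gained regions (5 without Control replicate 1 or FUSO replicate 1) and 1 to 4 lost (4 without Control replicate 2). Over all genes, 4.31% to 11.3% of the regions were then gained and 4.44% to 11.3% lost. Causes of these shifts were not tested, except that leaving out a list asks for fewer peaks.

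Single fold changes were followed over the alternatives only for the members named by rule, so other members near 0 are not covered. Among those followed, fold changes near 0 turned sign without being called under any setting. After quantile normalization PSMB7 was 0.009, PSMB9 -0.047, PSMD13 0.014, PSMD2 0.007 and PSMD3 0.018. After GC correction PSMC6 was -0.04, PSMD3 0.019 and PSMD7 -0.015, and under median ratio scaling PSMC6 was -0.006. With a library left out, PSMB1 was -0.014 to 0.088, PSMB9 -0.039 to 0.08, PSMD10 -0.051 to 0.007, PSMD2 -0.074 to 0.04, PSMD3 -0.058 to 0.056, PSMD5 -0.075 to 0.063, PSMD7 -0.044 to 0.072, PSMD8 -0.014 to 0.13, PSME1 -0.19 to 0.001, PSME2 -0.11 to 0.095, PSMF1 -0.18 to 0.011 and PSMG4 -0.22 to 0.035. 

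Deviations of replicate 1 from its group mean hardly correlated between Control and FUSO (r = 0.0243 over 11088 genes). This single comparison of levels cannot show whether cultures or library preparations were paired by number. With the replicate block 0 proteasome genes were called higher and 0 lower, the median was -0.051, and IRF1 stayed called (adjusted p 0.00496), so the block changed no call. With 2 libraries a group and no counts, small differences of single genes were not resolvable.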
